A study of Homo sapiens with 14 samples.

Results

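The potassium channel genes described here are those whose symbol begins with KCN. All such entries of the hPSC and day 11 gene tables were taken, except KCNJ6 and the antisense or intronic transcripts whose names carry -AS or -IT. Of 110 KCN entries, 14 were left out by this rule and 96 remained, out of 57445 gene entries. They fall into 21 subfamilies by name. By role, 30 code for pore-forming subunits of voltage-gated channels and 10 for voltage-gated-like subunits that are electrically silent on their own. Another 7 belong to the families of calcium- or sodium-activated channels (KCNMA, KCNN, KCNT and KCNU). KCNU1 is placed there by family and not by its own activation. Inward rectifiers number 14 and tandem pore-domain (K2P) leak channels 15. A further 17 code for auxiliary or regulatory proteins, and 3 are noncoding RNAs or pseudogenes (KCNQ1OT1, KCNQ1DN and KCNMB3P1). The rule reads symbols only.

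All cultures came from H9, an established human embryonic stem cell line, so every group is 1 genetic background. Total RNA was sequenced from 2 libraries in each of 7 groups. Undifferentiated cells (hPSC) were compared with cultures on the way to midbrain dopamine neurons. These were patterned with SHH, LDN and SB431542 (a hedgehog ligand and inhibitors of BMP and TGFβ/activin signalling), and received 0.7 µM CHIR99021, an inhibitor of GSK3 that activates WNT signalling, until day 3. From day 4 it was kept at 0.7 µM or raised to 3, to 5 or to 7.5 µM, and SHH, LDN and SB431542 were withdrawn on day 7. On day 10 every differentiating culture was changed to a medium with BDNF, GDNF, TGFβ3, ascorbic acid, dibutyryl cAMP and 3 µM CHIR99021. The day 11 libraries therefore share the last day of treatment, and the comparison among them asks what the concentration from day 4 changed. Day 16 and day 30 libraries followed the 7.5 µM arm only, with later replating and DAPT, a Notch pathway inhibitor. The records disagree on the last day of the raised concentration and on the day of the first later group, and the sample labels are followed here. The labels do not say that the 2 libraries of a group came from separate cultures, so p-values measure the spread between these libraries, which may be technical.

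Potassium channels let potassium leave a cell down its gradient, and so set the resting potential, repolarise action potentials and limit firing. Voltage-gated families (KCNA to KCND, KCNH and KCNQ) open on depolarisation, KCNMA and KCNN open with intracellular calcium, KCNJ channels pass current more readily inward and hold the membrane near rest, and KCNK channels carry background leak. Pore subunits assemble with auxiliary proteins that alter their gating or traffic (KCNAB, KCNE, KCNIP and KCNMB). Stem cells and neural progenitors also use potassium currents, in control of membrane potential and cell volume during proliferation, before neurons become excitable.

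The hPSC and day 11 libraries held 20524827 to 44758969 counts assigned to genes, and the day 16 and day 30 libraries 5406488 to 6336374. Levels are given as CPM, the count of a gene scaled to the total gene count of its library. POU5F1, a core pluripotency factor, stood at 463 and 522 CPM in hPSC and at 0.374 to 1.31 CPM in the day 11 libraries. The floor plate factors FOXA2 and LMX1A were at 0.557 CPM or less in hPSC and at 28.2 to 211 CPM at day 11. TH, the rate-limiting enzyme of dopamine synthesis, was at 0.204 CPM or less in every day 11 library. In bulk libraries, fewer cells of a type and less RNA per cell cannot be told apart. At day 11, the 4 replicate 1 libraries share 1 code in their descriptions, and the 4 replicate 2 libraries another. Same-numbered libraries deviated together from their group means, with correlations of 0.66 to 0.87 over 18709 genes for the 6 pairs of day 11 groups. The pairs with the 7.5 µM group were the lowest, at 0.66 to 0.70, and the others were at 0.81 to 0.87. Results are therefore given from a fit that ignores the replicate number and from one that has it as a block (the blocked fit). Against hPSC, the block takes the replicate difference at day 11 out of the spread, although hPSC and day 11 libraries share only a number. That difference still bears on the comparison with hPSC, so blocked p-values against hPSC can be too small. A change is called where the Benjamini-Hochberg adjusted p of edgeR's quasi-likelihood test over all genes is under 0.05.

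Of the 96 genes, 63 (65.6%) reached a group mean of at least 1 CPM in hPSC or at any day 11 concentration, against 29.3% of all gene entries. A level of at least 10 CPM was reached by 21. No count was seen in any of the 10 libraries for KCNA10, KCNG4, KCNK18, KCNMB3P1 and KCNU1, which allows at most 3 counts in each library on counting error alone. Summed over all 96 genes, the level was 457.8 and 467.3 CPM in hPSC and 262.4 to 432.1 CPM at day 11, with every day 11 library below both hPSC libraries. All members of KCNB (2 genes) and KCND (3 genes) reached 1 CPM, as did 6 of 8 KCNA, 6 of 8 KCNH, 9 of 14 KCNJ and 8 of 15 KCNK genes. Neither KCNV gene reached it.

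**Figure D1:**
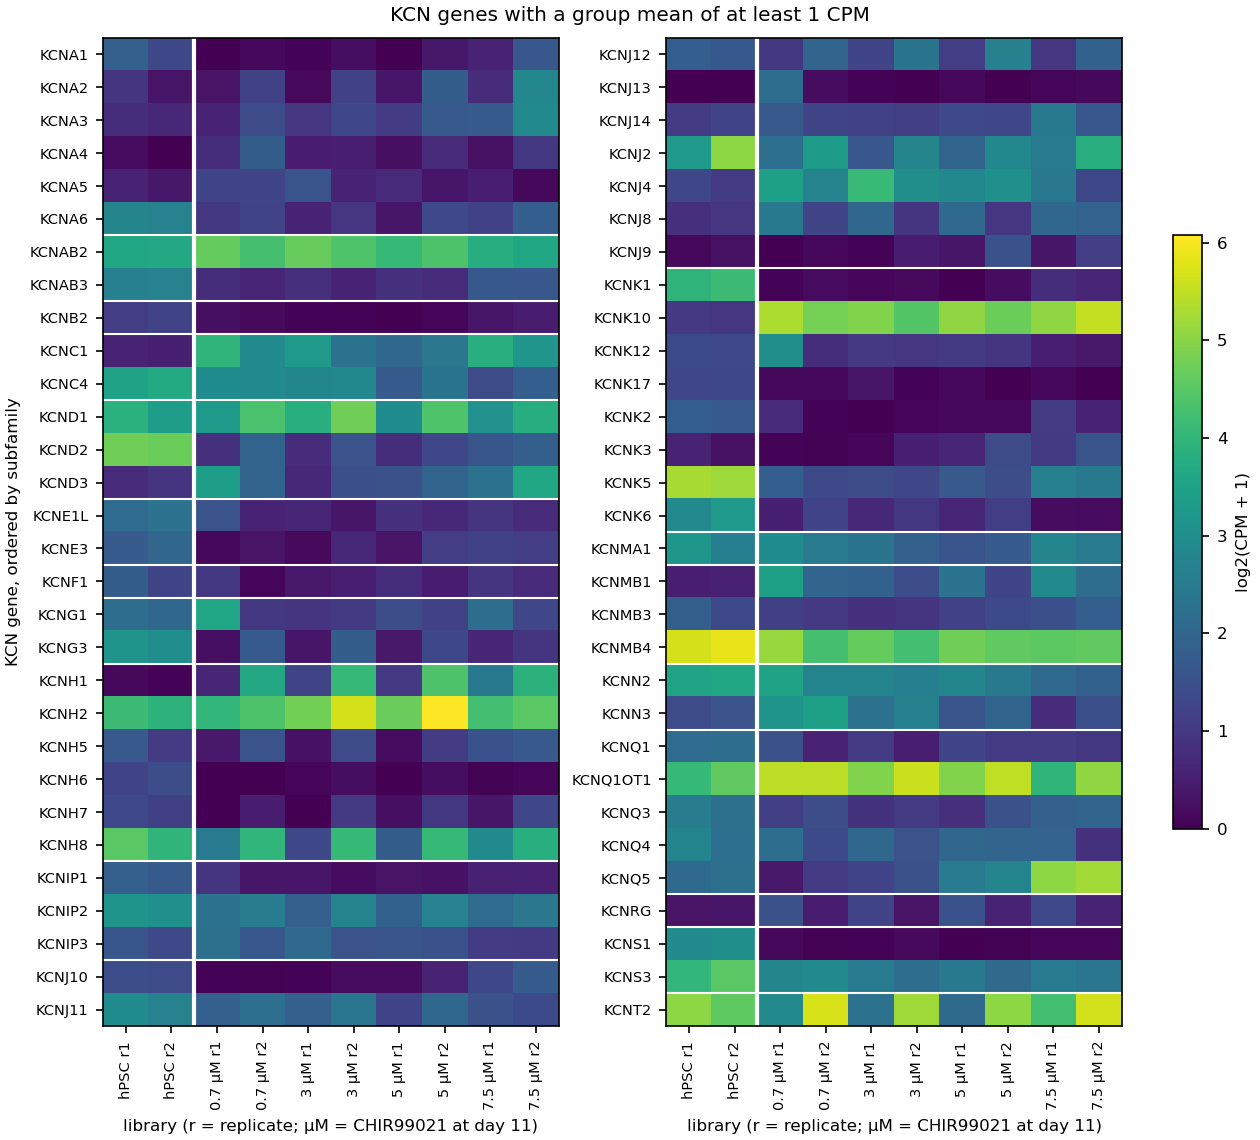
Levels of 60 of the 63 potassium channel genes with a group mean of at least 1 CPM, as log2(CPM + 1), in each of the 2 hPSC and 8 day 11 libraries (columns; r is the replicate and µM the CHIR99021 concentration), ordered by subfamily with white lines between subfamilies. KCND2, KCNK1, KCNK5 and KCNS1 are bright in hPSC and dark at day 11, KCNK10 shows the opposite, and KCNQ5 is brightest in the 7.5 µM libraries.

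Compared per kilobase of annotated exon, the most abundant transcripts in hPSC were KCNMB4 at 11.1 CPM per kb, KCNK5 at 9.77, KCNS3 at 5.95, KCND2 at 4.62 and KCNK1 at 4.32. The order at day 11 was KCNH2 at 5.18 CPM per kb, KCNMB4 at 4.86, KCNK10 at 3.80, KCNJ4 at 3.53 and KCNT2 at 3.53. KCNMB4, a brain-enriched auxiliary subunit of the large-conductance calcium-activated channel, thus ranked high in both. Its level was 50.6 and 57.6 CPM in hPSC and 18.1 to 34.3 CPM at day 11. KCNMA1, the pore that KCNMB4 binds, was at 8.27 and 5.11 CPM in hPSC and 1.97 to 6.77 CPM at day 11. KCNH2, which codes for the hERG channel, was at 16.8 and 14.2 CPM in hPSC and ranged from 15.2 to 66.4 CPM at day 11, highest in the replicate 2 libraries at 3 and 5 µM.

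Most of the potassium channel genes that differed between hPSC and day 11 were lower at day 11. Of 68 genes that passed the filter on low counts, 29 were called in the mean of the 4 day 11 groups against hPSC, 5 higher and 24 lower. Over all 19672 genes tested, 21.1% were called, 7.85% higher and 13.3% lower. The median log2 fold change was −0.55 over the 68 genes and 0.04 over all genes tested. The libraries of hPSC and day 11 did not overlap, with day 11 lower, in 28 of the 68 (41.2%, against 23.4% of all genes), and with day 11 higher in 6 (8.82%, against 14.5%). With the block within day 11, 49 of the 68 were called, 16 higher and 33 lower, beside 54.6% of all genes (25% higher, 29.6% lower). These blocked calls leave the day 11 replicate difference out of the spread, so the fit without the block is the more cautious here. Of 6 hPSC markers 5 fell, and the 6 summed to 3683 to 4530 CPM in hPSC and 1166 to 1891 CPM at day 11. LIN28A made up most of the day 11 sum, at 1107 to 1781 CPM, beside 1348 and 1847 CPM in hPSC. Loss of a transcript within cells and loss of hPSC cannot be told apart here. Only 2 libraries stand for hPSC, and without either one the count called fell to 9 or 10. The genes called whichever of the 10 libraries was left out were 9: KCNK10 among the higher ones, and KCNAB3, KCNB2, KCND2, KCNH6, KCNK1, KCNK5, KCNK6 and KCNS1 among the lower ones.

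**Figure D2:**
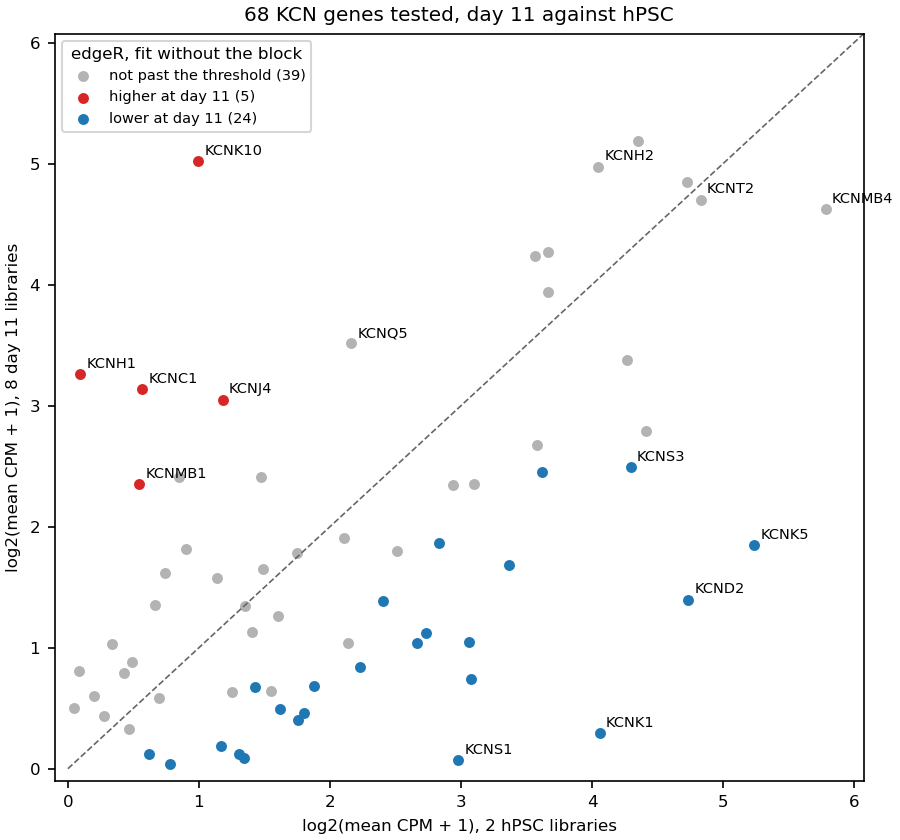
Mean level of each of the 68 tested potassium channel genes in the 2 hPSC libraries (x axis) and the 8 day 11 libraries (y axis), both as log2(CPM + 1); the dashed line marks equal levels and colour the edgeR call without the block. The 24 genes called lower lie below the line, with KCNK5, KCND2, KCNK1 and KCNS1 farthest from it, and the 5 called higher lie above it, KCNK10 highest.

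Among the K2P leak channels, 1 gene rose and 5 fell of 8 tested, in either fit (of all genes, 7.85% rose and 13.3% fell without the block, and 25% and 29.6% with it). KCNK10 (TREK-2), a mechano- and lipid-sensitive leak channel, was at 1.02 and 0.958 CPM in hPSC and at 20.8 to 44.7 CPM at day 11. Every day 11 library lay more than an order of magnitude above both hPSC libraries, and the log2 fold change was 5.17 ± 0.49 (SE; adjusted p = 0.000466). KCNK5 (TASK-2), an alkaline-activated leak channel, went the other way, from 37.8 and 35.6 CPM to 1.44 to 5.23 CPM (log2 fold change −3.77 ± 0.29, adjusted p = 0.000203). KCNK1 (TWIK-1) was at 14.5 and 16.9 CPM in hPSC and at 0 to 0.743 CPM at day 11, with its highest day 11 values at 7.5 µM (−6.50 ± 0.48, adjusted p = 0.000191). KCNK6, KCNK2 and KCNK17 fell as well, by 3.59, 3.55 and 4.02 on the log2 scale. KCNK17 and KCNK2 were no longer called without either hPSC library, with adjusted p up to 0.113 and 0.104. Summed over the 15 genes, the leak channels stood at 66.1 and 68.3 CPM in hPSC and at 24.9 to 52.8 CPM at day 11.

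Among pore-forming voltage-gated genes, 2 rose and 8 fell of 26 tested without the block (of all genes, 7.85% and 13.3%), and 7 rose and 12 fell with it (25% and 29.6%). KCND2 (Kv4.2), which carries fast transient A-type current, was at 26.3 and 25 CPM in hPSC and at 0.713 to 2.79 CPM at day 11 (log2 fold change −3.86 ± 0.41, adjusted p = 0.000729). Its paralogue KCND1 was at 13.7 and 9.62 CPM in hPSC and 6.74 to 26.2 CPM at day 11, with overlapping libraries (0.42 ± 0.46, adjusted p = 0.556). KCNB2 (Kv2.2), a delayed rectifier, fell by 3.56 ± 0.50 on the log2 scale (adjusted p = 0.00227). KCNA6, the most abundant of the Shaker-related KCNA genes by mean CPM, fell from 5.85 and 5.43 CPM to 0.289 to 2.53 CPM (−2.19 ± 0.45, adjusted p = 0.0121, not called without either hPSC library). KCNH6 (ERG2) fell from 1.36 and 1.72 CPM to at most 0.176 CPM (−5.09 ± 0.70, adjusted p = 0.0033). KCNA1, KCNC4 and KCNQ3 also fell.

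KCNC1 (Kv3.1), a channel of fast-spiking neurons, rose from 0.526 and 0.439 CPM in hPSC to 3.13 to 14.5 CPM at day 11 (log2 fold change 4.09 ± 0.66, adjusted p = 0.00436). Without either hPSC library its call was lost (adjusted p up to 0.0662). Of 6 tested neuron markers ELAVL4, MAP2 and TUBB3 rose too and none fell, and the 6 listed genes, which have 7 entries in the tables, summed to 55.1 to 76.6 CPM in hPSC and 140.0 to 566 CPM at day 11; their part in the KCNC1 result was not tested. KCNH1 (EAG1) was at 0.0929 and 0.0399 CPM in hPSC, on 4 counts in all, and at 0.585 to 19.8 CPM at day 11. Replicate 1 was at 0.585 to 4.51 CPM and replicate 2 at 11.6 to 19.8 CPM, with no overlap. Its adjusted p was 0.0499 without the block and 2.33e-05 with it (log2 fold change 6.96 ± 2.09 and 6.28 ± 0.74). The blocked p leaves the difference between replicates out of the spread. Without the block the call was lost when either hPSC library, either 7.5 µM library or the 3 µM replicate 2 library was left out.

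Of the electrically silent subunits, which modify KCNB channels when they assemble with them, none rose and 4 of 6 tested fell (KCNS1, KCNS3, KCNG3 and KCNV1), and 5 fell with the block. The KCNG3 call (adjusted p = 0.0426) was lost when any 1 of 6 libraries was left out. That of KCNV1, at a mean of 0.163 CPM over the hPSC and day 11 libraries, was lost without either hPSC library. Of all genes, 7.85% rose and 13.3% fell without the block, and 25% and 29.6% with it. KCNS1 was at 6.66 and 7.10 CPM in hPSC and at 0 to 0.106 CPM at day 11, 12 counts over the 8 libraries (log2 fold change −6.96 ± 0.47, adjusted p = 0.000123). KCNS3 remained present, at 15.4 and 21.9 CPM in hPSC and 3.30 to 6.37 CPM at day 11 (−1.82 ± 0.31, adjusted p = 0.00536, not called without hPSC replicate 2). KCNG1 was not called. Its level was 3.47 and 3.15 CPM in hPSC and 0.901 to 11.1 CPM at day 11, and only the 0.7 µM replicate 1 library was at 11.1 (−0.41 ± 0.74, adjusted p = 0.728). KCNF1 was at 2.45 and 1.4 CPM in hPSC and at most 0.974 CPM at day 11 (−1.64 ± 0.71, adjusted p = 0.143; adjusted p = 0.00753 with the block).

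Of the inward rectifiers, 1 rose and 2 fell of 9 tested without the block (of all genes, 7.85% and 13.3%), and 3 rose and 3 fell with it (25% and 29.6%). KCNJ4 (Kir2.3) was at 1.46 and 1.08 CPM in hPSC and 1.5 to 16.4 CPM at day 11, lowest in the 7.5 µM replicate 2 library (log2 fold change 2.58 ± 0.66, adjusted p = 0.029, lost without either hPSC library). KCNJ10 (Kir4.1), best known as the buffering channel of astrocytes, fell (−2.81, adjusted p = 0.00483, lost without either hPSC library). KCNJ11 (Kir6.2), the pore of the ATP-sensitive channel, was called lower close to the threshold (−1.09, adjusted p = 0.0487). Its call was lost when any 1 of 8 of the 10 libraries was left out. The KCNJ10 libraries of hPSC and day 11 overlapped, because those at 7.5 µM reached the hPSC level. KCNJ2 (Kir2.1), the most abundant KCNJ gene by mean CPM, differed between the hPSC libraries themselves, at 8.73 and 31.8 CPM, and was at 2.14 to 13.0 CPM at day 11 (−1.70 ± 0.57, adjusted p = 0.0722). Markers of astrocytes and oligodendrocytes also moved: 4 of 4 tested genes fell, GFAP, AQP4 and OLIG1 among them, and the 5 listed genes summed to 167 to 172 CPM in hPSC and 17.4 to 87.7 CPM at day 11. Their part in the KCNJ10 result was not tested.

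Of 5 calcium- and sodium-activated pores tested, 1 fell without the block (13.3% of all genes), and 1 rose and 2 fell with it (25% and 29.6%). KCNN4 fell without the block (log2 fold change −2.41 ± 0.68, adjusted p = 0.0408), at 0.588 CPM or less in every library and no longer called when any 1 of 8 libraries was left out. In the blocked fit KCNN4 and KCNN2 fell (adjusted p of 0.00377 and 0.00293) and KCNN3 rose (1.07 ± 0.31, adjusted p = 0.0117). KCNT2, a sodium-activated channel, was at 32.0 and 22.9 CPM in hPSC and 3.32 to 51.4 CPM at day 11 (−0.06 ± 0.99, adjusted p = 0.971). Of 13 auxiliary genes, KCNMB1 rose and KCNAB3, KCNE1L (KCNE5), KCNE3 and KCNIP1 fell without the block (of all genes, 7.85% rose and 13.3% fell), and 3 rose and 6 fell with it (25% and 29.6%). KCNMB1, a BK channel subunit best known in smooth muscle, was at 0.434 and 0.479 CPM in hPSC and 1.4 to 9.99 CPM at day 11 (3.24 ± 0.82, adjusted p = 0.0262, lost without either hPSC library or the 7.5 µM replicate 1 library). ACTA2, a smooth muscle actin gene on the list of heart and smooth muscle markers, also rose and TNNT2 fell; that 3-gene list summed to 4.59 to 7.62 CPM in hPSC and 9.14 to 20.6 CPM at day 11, and its part in the KCNMB1 result was not tested.

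The most abundant auxiliary gene, KCNMB4, was not called without the block (log2 fold change −0.99 ± 0.32, adjusted p = 0.0625). It fell in the blocked fit (adjusted p = 0.000734), and its hPSC and day 11 libraries did not overlap. KCNAB2, a β subunit of KCNA channels, was at 11.6 and 11.7 CPM in hPSC and 11.2 to 24.2 CPM at day 11 (log2 fold change 0.81 ± 0.30, adjusted p = 0.0895, and 0.00609 with the block). KCNIP2, a calcium-binding partner of KCND channels, was at 7.90 and 7.22 CPM in hPSC and 2.63 to 5.6 CPM at day 11 (−0.71 ± 0.32, adjusted p = 0.156, and 0.0163 with the block). KCNQ1OT1, a long noncoding RNA transcribed across KCNQ1 on the opposite strand, was at 15.9 and 23.0 CPM in hPSC and 14.6 to 47.2 CPM at day 11 (1.0 ± 0.36, adjusted p = 0.0842, and 0.00513 with the block). The strand setting of the counting is not given in the sources used here, so reads of KCNQ1 and KCNQ1OT1 cannot be told apart.

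Single concentrations set against hPSC gave smaller counts. At 0.7 µM, 16 of 68 genes were called (5 higher, 11 lower), beside 11.4% of all genes (5.31% higher, 6.12% lower). With the block 43 were called (14 higher, 29 lower), beside 46.1% of all genes (21% higher, 25% lower). At 7.5 µM, 14 were called (4 higher, 10 lower), beside 10.1% of all genes (4.35% higher, 5.7% lower). With the block 41 were called (15 higher, 26 lower), beside 34.8% of all genes (16.6% higher, 18.1% lower). Both comparisons use the same hPSC libraries. Only KCNK10 and KCNK5 at 0.7 µM, and KCNK10 and KCNS1 at 7.5 µM, were called whichever of the 10 libraries was left out. Without hPSC replicate 1 or 2 the counts were 4 or 2 at 0.7 µM and 3 or 3 at 7.5 µM, and without either 7.5 µM library the count at 7.5 µM was 3. KCNK10 differed by 5.22 ± 0.52 and 5.27 ± 0.52 on the log2 scale at 0.7 and 7.5 µM, and KCNC1 by 4.60 ± 0.72 and 4.44 ± 0.72. KCND3 (Kv4.3) rose at both, from 0.681 and 0.918 CPM in hPSC to 9.50 and 2.82 CPM at 0.7 µM and 3.92 and 11.2 CPM at 7.5 µM, with adjusted p of 0.0462 and 0.0447. At 3 µM, KCND3 was at 0.60 and 1.80 CPM, on either side of the hPSC libraries. Both KCND3 calls were lost without either hPSC library, and without several day 11 libraries.

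Several calls rested on few counts at 0.7 or 7.5 µM. KCNH6 had no count in either 0.7 µM library against 87 counts in hPSC, at least 29.5-fold lower on a floor of 3 counts over the group (adjusted p = 0.0186), and 3 counts at 7.5 µM, 33.3-fold lower (exact 95% interval 11.0 to 165; adjusted p = 0.0363). KCNJ10 had 2 counts at 0.7 µM against 97 in hPSC, 49.4-fold lower with an exact 95% interval of 13.3 to 413 that covers counting error only (adjusted p = 0.00898). At 7.5 µM it was at 1.49 and 2.4 CPM beside 1.73 and 1.64 CPM in hPSC (log2 fold change 0.19 ± 0.62, adjusted p = 0.915). KCNE3, a β subunit of KCNQ1 and other pores, fell at 0.7 µM (−3.69 ± 0.89, adjusted p = 0.0368) and was at −1.16 ± 0.78 at 7.5 µM (adjusted p = 0.467). KCNK6 at 7.5 µM was at 0.149 and 0.125 CPM against 6.29 and 8.62 CPM in hPSC (−5.73 ± 0.71, adjusted p = 0.00427, lost without 7.5 µM replicate 2). These calls against hPSC do not themselves compare 0.7 with 7.5 µM.

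KCNQ5 (Kv7.5) is a subunit of M-type channels, slowly activating potassium channels that open near rest and dampen repetitive firing. Its level was 3.25 and 3.71 CPM in hPSC. At day 11 it was at 0.341 and 1.09 CPM with 0.7 µM CHIR99021, 1.35 and 1.83 CPM with 3 µM, 4.62 and 5.72 CPM with 5 µM and 31.8 and 36.8 CPM with 7.5 µM. The 4 day 11 groups did not overlap and stood in the order of concentration, and hPSC fell between 3 and 5 µM. The other protein-coding KCNQ genes tested showed no call between 0.7 and 7.5 µM in either fit. Neighbouring groups in the order were separate in every library, but 3 against 0.7 µM was not called (log2 fold change 1.29 ± 0.56, adjusted p = 1; 1.27 ± 0.43, adjusted p = 0.505 with the block).

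Without the block, the log2 fold change of KCNQ5 at 7.5 against 0.7 µM was 5.36 ± 0.64 with an adjusted p of 0.143. With the block it was 5.35 ± 0.45 with an adjusted p of 0.000389, and it stayed called when each of the 8 libraries was left out (adjusted p at most 0.00407). At 5 against 0.7 µM the blocked value was 2.87 ± 0.42 (adjusted p = 0.0115; 0.672 without the block), lost without the replicate 1 library of either group. Per doubling of the concentration, KCNQ5 rose by 1.52 ± 0.26 in the blocked fit (adjusted p = 0.0287; 0.11 without the block), lost without the 0.7 µM replicate 1 library or either 7.5 µM library. This rate assumes a straight line on the log2 concentration, but the rise was steeper at the higher concentrations. The blocked log2 fold change against 0.7 µM was 1.27 at 3 µM, 2.87 at 5 µM and 5.35 at 7.5 µM. Against hPSC it fell at 0.7 µM (−2.07 ± 0.51, adjusted p = 0.0394) and rose at 7.5 µM (3.29 ± 0.52, adjusted p = 0.00912). The first call was lost when any of 9 of the 10 libraries was left out (adjusted p up to 0.227), and the second without either library of either group compared (up to 0.103).

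**Figure D3:**
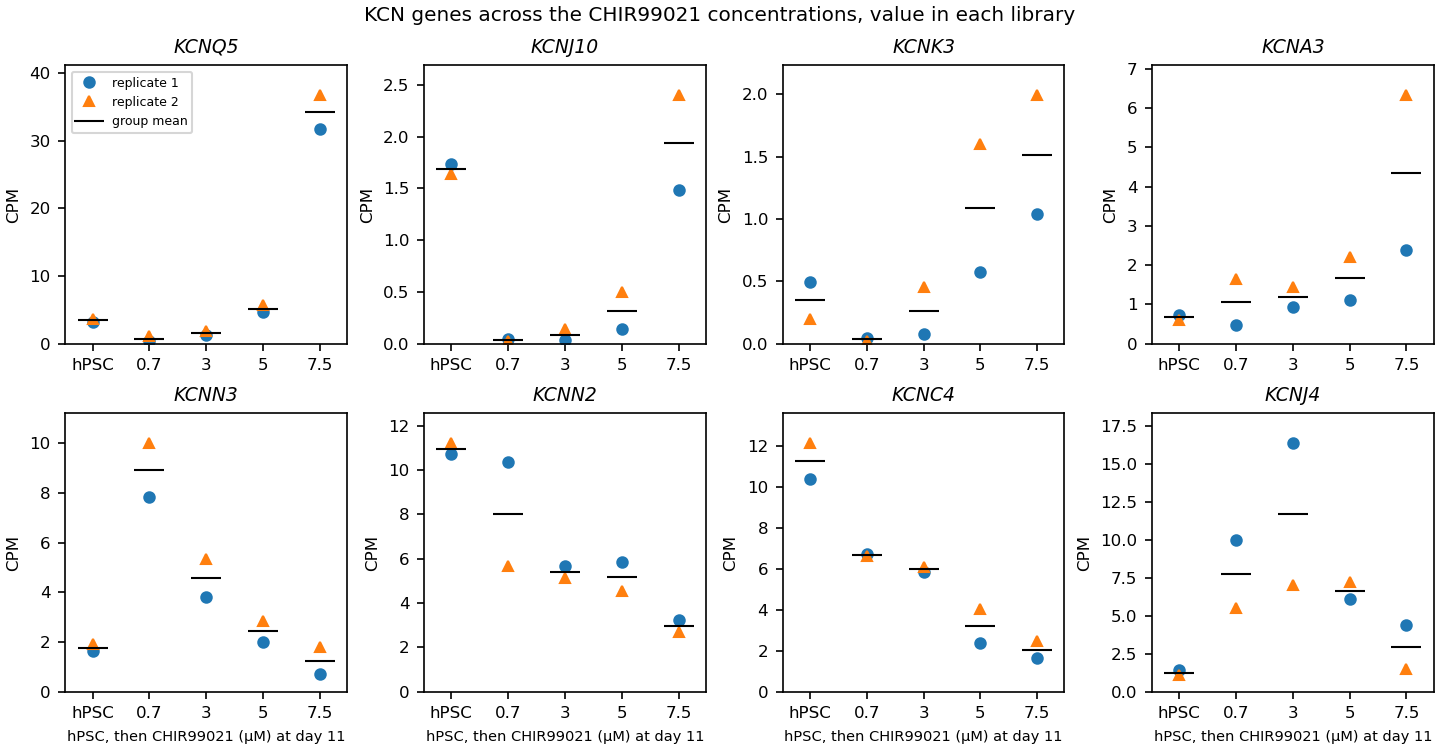
CPM of 8 potassium channel genes in each library of hPSC and of the 4 CHIR99021 concentrations at day 11 (circles, replicate 1; triangles, replicate 2; bars, group means; linear axes from 0). KCNQ5 stays at or below 5.72 CPM up to 5 µM and reaches 31.8 and 36.8 CPM at 7.5 µM, while KCNN3 is highest at 0.7 µM, at 7.84 and 10.0 CPM.

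Across all potassium channel genes the concentration comparison depended on the block. Of 62 genes tested at 7.5 against 0.7 µM, edgeR without the block called 0, as it did of all 18709 genes (0%), while 15 of the 62 and 1641 of all genes had an unadjusted p under 0.05. DESeq2 without the block called 7 of the 62 and 659 of all genes. With the block, 18 of the 62 were called, 8 higher and 10 lower, beside 10.5% of all genes (5.64% higher, 4.87% lower). With library totals in place of TMM scaling, the blocked split was 9 higher and 6 lower, and that of all genes 1209 higher and 594 lower. The 7.5 µM libraries lay entirely above those of 0.7 µM in 13 genes (21.0%, against 26.1% of all genes) and entirely below in 12 (19.4%, against 12.7%). Only KCNQ5, KCNJ10 and KCNN3 of the 18 were called whichever library was left out, and without either 0.7 µM library the count was 7 or 8. In the following sentences on this comparison, rose and fell refer to the blocked fit, and the adjusted p without the block was 0.143 or more for each gene.

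Genes that rose belonged to several families. KCNJ10 had 2 counts at 0.7 µM and 127 at 7.5 µM, at 0.0487 and 0.0223 CPM against 1.49 and 2.4 CPM. The ratio was 56.3, with an exact 95% interval of 15.3 to 470.0 (counting error only; adjusted p = 0.00266), and the intermediate groups were at 0.0375 and 0.141 CPM (3 µM) and 0.144 and 0.497 CPM (5 µM). KCNK3 (TASK-1), an acid-sensitive leak channel, went from 0.0487 and 0.0223 CPM at 0.7 µM to 1.04 and 2.0 CPM at 7.5 µM, a ratio of 43.9 (11.8 to 367; adjusted p = 0.00394, lost without 0.7 µM replicate 2). At 5 µM KCNK3 was already at 0.578 and 1.61 CPM, 40.7-fold above 0.7 µM (10.8 to 343; adjusted p = 0.0199 with the block). KCNJ9 (Kir3.3) was called at 5 µM too (log2 fold change 4.38 ± 0.78, adjusted p = 0.0282), on 4 counts at 0.7 µM. These were 3 genes higher and 0 lower at 5 against 0.7 µM, beside 1.13% of all genes (0.706% higher, 0.422% lower). Without the block edgeR called 0 (0% of all genes), with 8 of the 62 and 567 of all genes at an unadjusted p under 0.05, and DESeq2 called 2 and 129. Each of the 3 blocked calls was lost when a library of these groups was left out.

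Shaker-related genes rose in part. KCNA3 (Kv1.3) was at 0.487 and 1.65 CPM at 0.7 µM and 2.38 and 6.33 CPM at 7.5 µM (log2 fold change 1.84 ± 0.45, adjusted p = 0.0305). KCNA1 (Kv1.1) was at 0 and 0.0894 CPM at 0.7 µM and 0.505 and 2.12 CPM at 7.5 µM (4.61 ± 0.87, adjusted p = 0.0102). KCNA2 was called as well though its libraries overlapped, and KCNA5, a Shaker-related gene known from heart, fell from 1.41 and 1.43 CPM to 0.416 and 0.0935 CPM (−3.00 ± 0.69, adjusted p = 0.0222). KCNE3 rose from 0.0974 and 0.246 CPM to 1.25 and 1.15 CPM (2.78 ± 0.72, adjusted p = 0.0356). Each of these calls was lost without 0.7 µM replicate 2, and those of KCNA2, KCNA3 and KCNE3 also without other libraries.

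Of the small-conductance calcium-activated channels, which shape the afterhyperpolarisation and pacing of dopamine neurons, KCNN3 and KCNN2 were lower at 7.5 than at 0.7 µM, and neither was called at 3 or 5 µM or in the trend per doubling of concentration. KCNN3 (SK3) was at 1.64 and 1.92 CPM in hPSC, 7.84 and 10.0 CPM at 0.7 µM, 3.83 and 5.35 CPM at 3 µM, 2.02 and 2.86 CPM at 5 µM and 0.713 and 1.81 CPM at 7.5 µM. The 4 day 11 groups did not overlap and stood in descending order of concentration. Its log2 fold change at 7.5 against 0.7 µM was −3.05 ± 0.41 (adjusted p = 0.00233). KCNN3 also rose from hPSC to 0.7 µM (2.49 ± 0.50, adjusted p = 0.0193, lost without either hPSC library or 0.7 µM replicate 2). KCNN2 (SK2) fell from 10.4 and 5.65 CPM to 3.24 and 2.71 CPM (−1.54 ± 0.33, adjusted p = 0.0173, lost without 0.7 µM replicate 1).

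KCNC4 (Kv3.4) was at 10.4 and 12.1 CPM in hPSC, at 6.72 and 6.61 CPM at 0.7 µM, 5.85 and 6.09 CPM at 3 µM, 2.36 and 4.06 CPM at 5 µM and 1.63 and 2.49 CPM at 7.5 µM (log2 fold change −1.88 ± 0.37 between the ends, adjusted p = 0.0121, lost without 0.7 µM replicate 1). KCNJ4, which had risen from hPSC to day 11, was at 10.0 and 5.54 CPM at 0.7 µM and 4.43 and 1.5 CPM at 7.5 µM (−1.66 ± 0.41, adjusted p = 0.0309, lost without either 0.7 µM library). For KCNK12 (THIK-2) the 0.7 µM libraries differed from each other: replicate 1, also the highest library for KCNG1, was at 6.97 CPM and replicate 2 at 0.737 CPM, against 0.416 and 0.343 CPM at 7.5 µM (−3.08 ± 0.74, adjusted p = 0.0272), and the call was lost without that library or 7.5 µM replicate 1. KCNK6, KCNIP3, KCNAB2 and KCNQ1OT1 were the remaining genes that fell, with adjusted p of 0.025 to 0.0421.

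The lower steps of concentration gave few or no calls. At 3 against 0.7 µM no potassium channel gene was called by edgeR in either fit, with 3 of 62 at an unadjusted p under 0.05 without the block and 9 with it, beside 276 and 1400 of all 18709 genes. Over all genes the share called was 0% and 0.0214% (0.016% higher, 0.00535% lower). DESeq2 called 0 of the 62 without the block and 2 with it. In the trend per doubling of concentration, edgeR called 0 of the 62 without the block (0.134% of all genes, 0.0802% higher and 0.0535% lower, and 11 of the 62 and 1106 of all genes at an unadjusted p under 0.05) and 3 with it, KCNJ10, KCNK3 and KCNQ5 (1.19% of all genes, 0.722% higher and 0.465% lower). DESeq2 called 5 of the 62 without the block.

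Markers of caudal and mesodermal cells changed along the same series of concentrations. In the blocked fit at 7.5 against 0.7 µM, 2 of 4 tested genes rose (CDX2 and T) and none fell, and the 4 genes summed to 0.581 to 0.780 CPM at 0.7 µM, 2.15 to 2.48 CPM at 3 µM, 12.4 to 14.1 CPM at 5 µM and 23.7 to 33.0 CPM at 7.5 µM. Of 5 midbrain floor plate markers, EN1 and OTX2 rose and CORIN fell, and their sum went from 272 to 436 CPM at 0.7 µM to 645 to 673 CPM at 7.5 µM. Of 6 neural progenitor markers, PAX6 and FABP7 fell, with a sum of 1278 to 2751 CPM at 0.7 µM and 1270.5 to 1502 CPM at 7.5 µM. Of 3 tested markers of mesenchyme and vessel, COL1A1 and PDGFRB rose, with sums of 10.2 to 28.6 CPM and 41.9 to 76.2 CPM. The part of these cells in the changes of KCNQ5, KCNJ10, KCNK3 and KCNN3 was not tested.

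KCNQ5, KCNJ10 and KCNK3 were the genes called by edgeR in the trend, in the blocked fit only. None of the 3 kept that call in every fit that left out 1 library. Their promoters are shown with the core of the TCF/LEF motif, the DNA word bound by transcription factors of the WNT pathway that CHIR99021 activates. The sequences are the 250 bases before the annotated start, 5′ to 3′ on the strand of the gene, from RefSeq on GRCh38.p14. The spans are chr6:72621814-72622063 (plus strand) for KCNQ5, chr1:160070161-160070410 (minus strand) for KCNJ10 and chr2:26692472-26692721 (plus strand) for KCNK3. Capitals mark the letters CTTTG or, on the other strand, CAAAG.
KCNQ5: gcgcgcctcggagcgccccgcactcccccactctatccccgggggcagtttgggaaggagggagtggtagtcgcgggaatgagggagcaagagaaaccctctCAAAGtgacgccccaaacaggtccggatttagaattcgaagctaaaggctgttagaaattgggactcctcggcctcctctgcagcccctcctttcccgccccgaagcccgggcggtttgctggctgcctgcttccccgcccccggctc
KCNJ10: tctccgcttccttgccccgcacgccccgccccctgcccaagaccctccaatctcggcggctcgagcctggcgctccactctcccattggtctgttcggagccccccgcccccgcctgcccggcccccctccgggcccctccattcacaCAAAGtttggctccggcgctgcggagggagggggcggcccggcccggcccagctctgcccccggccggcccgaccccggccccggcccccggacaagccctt
KCNK3: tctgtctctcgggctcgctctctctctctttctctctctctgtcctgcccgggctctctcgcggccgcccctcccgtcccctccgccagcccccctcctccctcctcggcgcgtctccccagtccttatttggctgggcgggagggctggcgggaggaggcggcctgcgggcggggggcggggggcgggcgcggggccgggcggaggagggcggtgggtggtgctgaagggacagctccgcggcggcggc
The windows of KCNQ5 and KCNJ10 each hold 1 match, starting 148 and 102 bases before the start, and that of KCNK3 holds none. The G and C content was 64% for KCNQ5, 76.8% for KCNJ10 and 76.4% for KCNK3. The same letters occur in 42.07% of 35116 promoter windows of this length in the RefSeq table, and in 38 of the 106 windows (35.85%) that belong to 69 of the 96 potassium channel genes matched by symbol. The longer word CTTTGAT occurs in 2.26% of all windows and in 1 of the 106. A match is a description of the sequence and no evidence of binding, and its absence says only that these letters are not in the window.

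The pattern of KCNQ5 over the 10 hPSC and day 11 libraries was most alike in KLHL14, with a Pearson correlation of log2(CPM + 1) of 0.966 over 10 libraries among 19672 genes. Next came NPPA-AS1 (0.961), a clone-named noncoding transcript (0.961), C11orf87 (0.960) and RP11-71N10.1 (0.957). KLHL14 was at 6.78 and 4.23 CPM in hPSC, 0.146 and 1.68 CPM at 0.7 µM and 31.7 and 22.6 CPM at 7.5 µM. The other 4 reached at most 3.21 CPM in any library. All points share the libraries and their depth, and the correlations are descriptions.

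The replicate number separated genes of all kinds at day 11, and the share of potassium channel genes called was no higher than that of all genes. In a comparison added after the data were seen, replicate 2 against replicate 1 in the blocked fit, 31 of 62 potassium channel genes were called, 17 higher and 14 lower, beside 55.6% of all genes tested (28.7% higher, 26.9% lower). KCNT2 was at 6.38, 3.86, 3.32 and 17.7 CPM in the replicate 1 libraries, in order of rising concentration, and at 51.4, 36.1, 32.0 and 49.5 CPM in replicate 2. The ranges did not overlap, and the log2 fold change was 2.52 ± 0.29 (adjusted p = 0.000383). KCNH1 differed by 3.12 ± 0.42, KCNA2 by 2.82 ± 0.35 and KCNH8 (ELK1) by 1.96 ± 0.32, all higher in replicate 2 (adjusted p of 0.00055, 0.000408 and 0.00101). KCNRG, a regulator that binds voltage-gated subunits, and KCNMB1 were lower in replicate 2, by −2.20 ± 0.35 and −1.40 ± 0.27 (adjusted p of 0.000852 and 0.00198). KCNQ5 was not called in this comparison (0.30 ± 0.28, adjusted p = 0.372), nor was KCNN3 (0.43 ± 0.27, adjusted p = 0.207). For KCNT2, KCNH1 and KCNH8 the 7.5 µM library was the highest of the replicate 1 libraries. What the replicate number stands for is not said beyond the shared code, and no cause was tested.

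**Figure D4:**
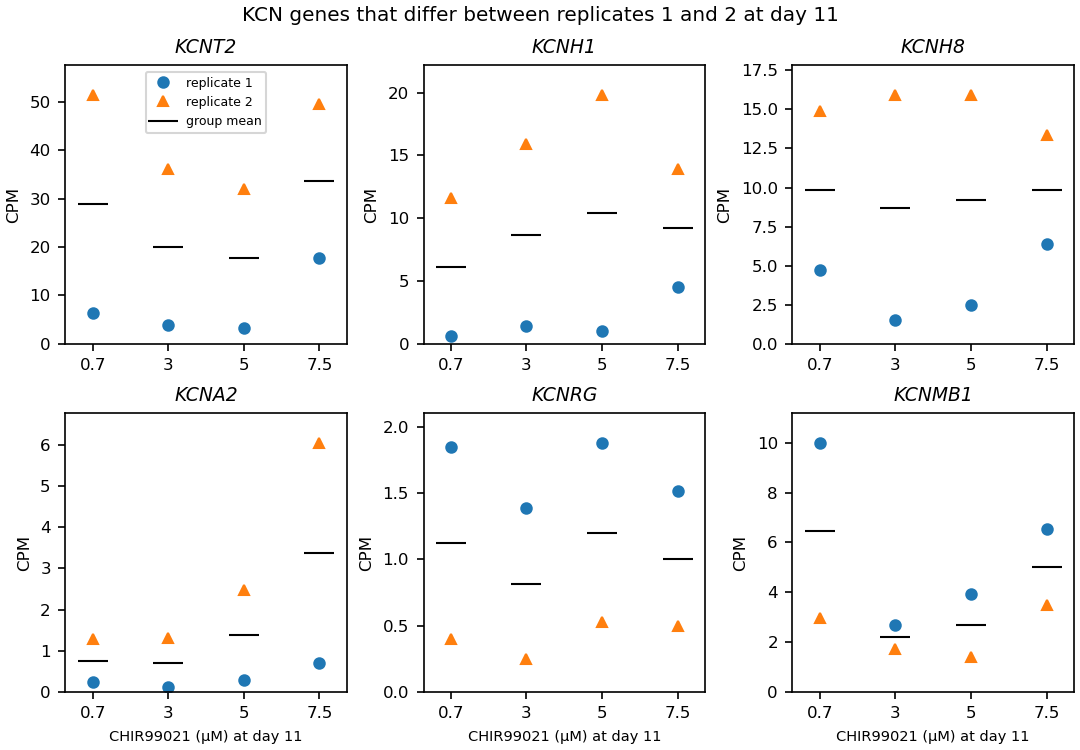
CPM of 6 potassium channel genes at day 11 by CHIR99021 concentration (circles, replicate 1; triangles, replicate 2; bars, group means; linear axes from 0); the genes were chosen after their values were seen. KCNT2, KCNH1, KCNH8 and KCNA2 are higher in replicate 2 at every concentration, and KCNRG and KCNMB1 are lower.

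Other genes of the pathway were followed in a list of proteins that bind potassium channels without being named KCN. From hPSC to day 11, of 18 tested of 21 listed, LGI1 and DLG4 rose and ANK3 and DPP10 fell, with a median log2 fold change of 0.13 beside 0.04 over all genes. With the block 4 rose and 6 fell. Of all genes, 7.85% rose and 13.3% fell without the block, and 25% and 29.6% with it. LGI1, a secreted partner of the KCNA complex, was at 0.341 and 0.0798 CPM in hPSC and 4.58 to 116 CPM at day 11 (7.51 ± 1.10, adjusted p = 0.00285). ANK3 (ankyrin-G), which anchors KCNQ channels at the axon initial segment, fell from 118 and 98.4 CPM to 6.34 to 42.4 CPM (−2.30 ± 0.43, adjusted p = 0.00808). Between 0.7 and 7.5 µM, edgeR called none of the 18 without the block and 5 with it (of all genes, 0% and 10.5%). DPP6, an auxiliary subunit of KCND channels, fell from 41.1 and 19.1 CPM to 1.87 and 3.49 CPM in the blocked fit (−3.54 ± 0.50, adjusted p = 0.00303), and ABCC8 and DLG4 fell too. LGI1 (2.67 ± 0.53, adjusted p = 0.0129) and CNTNAP2 (2.42 ± 0.47, adjusted p = 0.0115) rose.

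A list of other cation channel pores was followed as well. Of 26 tested of 30 listed, 4 rose and 7 fell from hPSC to day 11 (of all genes, 7.85% and 13.3%). The median log2 fold change was 0.47, beside 0.04 over all genes. With the block 11 rose and 9 fell (25% and 29.6% of all genes). HCN4, a pacemaker channel, fell from 63.5 and 44.4 CPM to 0.863 to 7.69 CPM (−4.08 ± 0.43, adjusted p = 0.000711). SCN9A, a sodium channel, fell from 4.65 and 4.03 CPM to 0 to 1.62 CPM (−4.15 ± 0.80, adjusted p = 0.00908). Between 0.7 and 7.5 µM none of the 26 was called without the block (0% of all genes). With it 6 rose and 5 fell (5.64% and 4.87% of all genes). SCN9A rose from close to no counts, at 0 and 0.0894 CPM, to 0.208 and 1.62 CPM (4.01 ± 0.81, adjusted p = 0.0135). SCN3A fell, from 4.92 and 6.55 CPM to 0.208 and 2.06 CPM (−3.01 ± 0.60, adjusted p = 0.0135).

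The day 16 and day 30 tables list all 96 genes, but their values could not be read as levels of the named genes. MT-ND6, the only protein-coding gene on the light strand of the mitochondrial genome, was at 2957 to 6561 CPM there against 52.4 to 292 CPM in the other tables, while MT-CYB on the heavy strand was at 142 to 566 CPM against 997 to 6237 CPM. GAPDH was at 71.0 to 290 CPM against 2304 to 9966 CPM. KCNQ1 was at 115 to 242 CPM and KCNQ1OT1, on its opposite strand, at 0.555 to 2.84 CPM, against 0.423 to 3.47 CPM and 14.6 to 47.2 CPM in the other tables. Whether the later tables count the opposite strand was not tested, since the strandedness of the kit and of the counting is not given in the sources used here. Within these 4 libraries, day 30 against day 16 gave 6 calls among 44 tested entries (4 higher, 2 lower), beside 11% of all genes (6.82% higher, 4.2% lower), and 1 call with the block, beside 6.91% (4.68% higher, 2.24% lower). The higher entries were KCNJ3, KCNK15, KCNC2 and KCNK9, and the lower ones KCNIP1 and KCNJ16, the last with overlapping libraries. None of the 6 was called in every fit that left out 1 library.

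Annotated exons of other genes overlap those of several genes named above, on either strand, and how shared reads were counted is not given in the sources used here, so such reads cannot be told apart. In GENCODE 29 these include KCNQ5 (FO393414.3), KCNK10 (AL133279.1), KCNJ4 (Z97056.1), KCNN2 (AC010230.1), KCNMB1 (CTD-2270F17.1), KCNA6 (GALNT8), KCNE1L (ACSL4) and KCNRG (TRIM13).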

How the data were processed

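RNA sequencing of 14 libraries was deposited as raw read counts per gene, 1 table for each library. Per the submitters' processing notes, which name tools without their roles, the authors used hg19 with DESeq2 1.12.4, HTSeq 0.5.3, featureCounts 1.4.2 and STAR 2.4.2a. The 5 summary rows, 37.41 to 44.33% of the counts in a hPSC or day 11 table, name no gene and entered neither library sizes nor tests. CPM was computed from gene rows without further scaling. Changes were tested with edgeR 4.0.16 (quasi-likelihood, TMM scaling, filterByExpr, robust) and limma 3.58.1 in R 4.3.3, on 10 libraries for comparisons with hPSC and on the 8 day 11 libraries for concentrations, with Benjamini-Hochberg adjustment over all genes. The fit without the block came first and the blocked one as its alternative. Day 11 replicate numbers pair the libraries (shared codes in the descriptions, and correlations of 0.66 to 0.87), whereas hPSC and day 11 libraries share only a number (correlations of −0.18 to −0.11). Errors of log2 fold changes are SE. Where a group held 1 to 3 counts, a count ratio with an exact 95% interval replaces the fitted fold change, and where it held 0 the floor was 3 counts over the group. The fits were also run on simulated counts, with a shared replicate difference for the concentration comparison only. The simulation of day 11 against hPSC held no such difference, so it cannot show how that difference affects calls against hPSC.

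Named were KCNQ5, in each comparison up to 6 called members a direction with the largest change (mean of 1 CPM or more where higher, libraries not overlapping), the 5 members of highest level per kb in hPSC and at day 11, the most abundant member of each subfamily and up to 4 called genes of a list. For comparisons with hPSC this used the fit without the block, and among concentrations both fits, a reading of the rule settled after values were seen; other genes completing a count were also named then. The members and lists were chosen with earlier results of these data known. Alternatives were the replicate block, relative log expression or library totals for scaling, no filter on low counts, DESeq2 1.42.0 and leaving out each library. Promoters are RefSeq's on GRCh38.p14 and exons GENCODE 29's, and promoters were matched by symbol; no coordinates of the authors' build were used. Some genes that the rule names are not reported here, and 3 genes are not drawn in the heatmap.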

Additional observations from a re-analysis of the deposited data

How the results depend on the processing

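Named single-gene results numbered 77. Over 1030 alternatives of them, 851 kept their direction and their side of the threshold, 149 kept the direction and lost the call, 30 gained it and 0 turned direction. Most of these results had been chosen for a call, a large change and libraries that did not overlap. A turn of direction was therefore hardly possible, and its absence is no sign of robustness. The cause was not tested where a count moved, except that leaving out libraries lowers the number of libraries. Counts of KCN genes and of all genes called are given in that order, beside those of the edgeR fit without the block or, where stated, with it. For the mean of day 11 against hPSC (29 and 4152), the replicate block gave 49 and 10732, DESeq2 called 6258 of all genes, and leaving out 1 library gave 9 to 31 and 1114 to 4927. For 0.7 µM against hPSC (16 and 2248), the block gave 43 and 9064, DESeq2 28 and 4400, and leaving out 1 library 2 to 16 and 115 to 2098. For 7.5 µM against hPSC (14 and 1978), the block gave 41 and 6838, DESeq2 25 and 3537, and leaving out 1 library 3 to 20 and 249 to 2263. 

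Among concentrations, the block decided most calls. For 7.5 against 0.7 µM (0 and 0), the block gave 18 and 1967, no filter on low counts 1 and 29, and DESeq2 7 and 659. With the block, all-gene counts were 3391 without the filter and 3006 by DESeq2, and leaving out 1 library gave 7 to 22 and 754 to 5613. Single values with the block were 7 and 754 without 0.7 µM replicate 1, 8 and 822 without 0.7 µM replicate 2, and 5613 genes without 7.5 µM replicate 2. For 5 against 0.7 µM (0 and 0), the block gave 3 and 211, no filter 6 of all genes, and DESeq2 2 and 129. With the block these became 9 and 783 without the filter, 7 and 614 by DESeq2, and 0 to 6 and 50 to 845 with 1 library left out. In that last case the values were 0 and 50 without 0.7 µM replicate 1, 1 without 0.7 µM replicate 2, 0 and 60 or 1 and 95 without 5 µM replicate 1 or 2, and 6 and 845 or 6 and 816 without 7.5 µM replicate 1 or 2. For 3 against 0.7 µM (0 and 0), the block gave 4 of all genes and DESeq2 16. With the block these became 4 and 320 without the filter, 2 and 191 by DESeq2, and 0 to 2 and 0 to 154 with 1 library left out. The values there were 0 genes and 1 and 59 without 0.7 µM replicate 1 and 2, 8 and 12 genes without those of 3 µM, 12 and 15 without those of 5 µM, and 2 and 154 and 2 and 132 without those of 7.5 µM.

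For the trend (0 and 25), the block gave 3 and 222, library totals 13 of all genes, DESeq2 5 and 330, and leaving out 1 library 0 and 0 to 29. With the block the trend gave 7 and 383 without the filter, 9 and 812 by DESeq2, and 0 to 4 and 2 to 251 with 1 library left out. Those were 0 and 2 without 0.7 µM replicate 1, 110 genes without 0.7 µM replicate 2, 129 and 125 genes without 5 µM replicate 1 and 2, and 1 KCN gene or 123 genes without 7.5 µM replicate 1 or 2. For day 30 against day 16 (6 and 1702), the replicate block gave 1 and 1067, library totals 0 and 1081, and leaving out 1 library 0 to 21 and 39 to 8081. Same-numbered libraries correlated at −0.22 there, and the crossed pairing gave 3 KCN genes. Replicate 2 against replicate 1 gave 21 to 34 and 7461 to 12187 when 1 library was left out.

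Library totals in place of TMM shifted the median of all genes from 0.04 to −0.14 for day 11 against hPSC and from −0.03 to 0.14 for 7.5 against 0.7 µM. With 2 libraries a group, leaving 1 out assumes that the lone library varies like the other groups. Depth limits the genes with few counts at 0.7 µM (KCNJ10, KCNK3, KCNA1 and KCNJ9), whose ratios have wide counting intervals.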
